A study of Mus musculus with 17 samples.

Results

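A set of 10 genes that mark type 2 alveolar epithelial (AT2) cells, which make and secrete lung surfactant, was followed in 17 RNA-sequencing libraries. They were given by symbol, 4 of them for the lamellar body or apical membrane (Abca3, Lamp3, Napsa and Slc34a2) and 6 for secreted or cytosolic products that AT2 cells make in large amounts (Lyz2, Cxcl15, Hc, Chil1, S100g and Egfl6). Each of the 10 symbols matched 1 of the 43430 Ensembl gene IDs in both count tables, and all 10 passed the filter on low counts in both.

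The libraries came from sorted AT2 cells of C57BL/6J mice aged 2 months. In the first experiment the mice were naive (uninjured) and received vehicle (4 libraries, titled saline) or ISRIB (4 libraries), a compound that relieves the translational block of the integrated stress response, and cells were sorted 24 h later. Those 8 libraries were made from 3 ng of RNA after poly(A) selection. In the second experiment cells came from naive mice (4 libraries) or from mice given bleomycin 14 days earlier (5 libraries), an agent used to cause lung injury and fibrosis, and the 9 libraries were made from 0.35 ng with a stranded total-RNA kit. Both of these groups carry the treatment label vehicle and say saline in their titles. The sources used here give no dose, sex or sorting marker and do not say whether each library came from its own mouse, so the p-values measure the spread between libraries, part of which may be technical. Libraries are named by group and the replicate number of the labels.

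AT2 cells store surfactant in lamellar bodies, lysosome-related organelles in which phospholipid is packed with surfactant proteins B and C before secretion. ABCA3 is the transporter that moves phospholipid into the organelle, LAMP3 is a glycoprotein of its limiting membrane, and napsin A (Napsa) is an aspartic protease that takes part in the processing of the surfactant protein B precursor. NaPi-IIb (Slc34a2) is the apical cotransporter that takes phosphate back from the alveolar fluid. Lysozyme (Lyz2), the chemokine lungkine (Cxcl15), complement component C5 (Hc) and the chitinase-like protein encoded by Chil1 are secreted defence proteins, S100g encodes a small calcium-binding protein, and Egfl6 encodes a secreted protein with EGF-like repeats. NKX2-1 is the lineage transcription factor that AT2 cells depend on for much of this expression.

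Gene positions below are those of GENCODE M21 on GRCm38 (mm10), counted from 1, over the whole gene model. The lamellar body and membrane genes were Abca3 (ENSMUSG00000024130, chromosome 17, 24351950 to 24410201, plus strand), Lamp3 (ENSMUSG00000041247, chromosome 16, 19653378 to 19706375, minus strand), Napsa (ENSMUSG00000002204, chromosome 7, 44572380 to 44586862, plus strand) and Slc34a2 (ENSMUSG00000029188, chromosome 5, 53038081 to 53071664, plus strand). Among the genes for secreted products were Lyz2 (ENSMUSG00000069516, chromosome 10, 117277331 to 117282321, minus strand), Cxcl15 (ENSMUSG00000029375, chromosome 5, 90794534 to 90803067, plus strand) and Hc (ENSMUSG00000026874, chromosome 2, 34983331 to 35061438, minus strand). The others were Chil1 (ENSMUSG00000064246, chromosome 1, 134182176 to 134190181, plus strand), S100g (ENSMUSG00000040808, chromosome X, 162961992 to 162964599, minus strand) and Egfl6 (ENSMUSG00000000402, chromosome X, 166523007 to 166585720, minus strand). Exons of Abca3, Napsa and Hc overlap gene models on the opposite strand. The sources used here do not give the strand setting of the authors' counting. The opposite-strand models had few counts beside their partners, 0 to 156 per library for D330041H03Rik against 6167 to 48296 for Abca3, and 0 to 205 for Gm13449 against 12882 to 92168 for Hc. The opposite-strand model at Napsa, Gm15396, was not analysed here.

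Promoter windows were read for 9 of the 10 genes, as the 250 bases before the RefSeq start site on GRCm38.p6 (Napsa had no entry). They are shown because NKX2-1 is the lineage factor described above and its gene was called lower after bleomycin (below). A link from that fall to the 10 genes was not tested. The 8-letter pattern CACTNNAG, searched on both strands for NKX2-1, was present in 5 of the 9 windows (Abca3, Lamp3, Lyz2, Cxcl15 and Egfl6), against 12.87% of 32851 promoter windows of that length. The other patterns searched were TTGCNNAA for C/EBP (2 of 9, against 9.56%), TGTTTNC for forkhead factors (3 of 9, against 17.84%) and TATAAA for the TATA box (2 of 9, against 12.37%). The TATAAA match began 27 bases before the start site in Cxcl15 but 239 bases before it in Hc. A match of letters is a description and shows no binding. The windows of Abca3 (chr17:24351773-24352022, plus strand), Lamp3 (chr16:19706366-19706615, minus strand) and Lyz2 (chr10:117282273-117282522, minus strand) are printed 5′ to 3′ on the gene's strand, with the NKX2-1 pattern in capitals. The pattern began 200 bases before the start site in Abca3 and 111 in Lamp3, and in Lyz2 it lay 228 bases before it on the opposite strand.
Abca3: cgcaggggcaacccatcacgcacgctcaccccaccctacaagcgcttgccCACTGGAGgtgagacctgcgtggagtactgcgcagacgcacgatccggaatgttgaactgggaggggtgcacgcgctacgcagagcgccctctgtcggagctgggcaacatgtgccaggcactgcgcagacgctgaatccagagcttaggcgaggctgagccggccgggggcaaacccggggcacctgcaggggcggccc
Lamp3: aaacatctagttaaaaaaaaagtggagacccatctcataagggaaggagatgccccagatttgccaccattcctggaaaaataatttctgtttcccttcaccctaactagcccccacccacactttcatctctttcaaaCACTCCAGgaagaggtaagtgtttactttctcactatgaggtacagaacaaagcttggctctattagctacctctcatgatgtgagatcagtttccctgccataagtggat
Lyz2: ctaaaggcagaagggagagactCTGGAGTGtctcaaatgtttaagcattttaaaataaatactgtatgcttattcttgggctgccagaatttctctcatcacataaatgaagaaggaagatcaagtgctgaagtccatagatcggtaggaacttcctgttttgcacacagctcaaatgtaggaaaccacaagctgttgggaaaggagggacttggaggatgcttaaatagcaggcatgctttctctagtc

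Total counts ran from 10493574 to 15727139 per poly(A) library and from 3295257 to 6333166 per total-RNA library. The smallest count of any of the 10 genes in any library was 664 (S100g in bleomycin 1). Together they took 8.14% to 8.91% of all counts after poly(A) selection and 2.51% to 4.39% with the total-RNA kit, where ribosomal-RNA-like models took 15.7% to 29.2%. With ribosomal-RNA-like and mitochondrial genes set aside, the share was 8.53% to 8.82% in vehicle, 8.53% to 9.29% in ISRIB, 4.97% to 5.29% in naive and 3.26% to 5.41% in bleomycin libraries. Bleomycin 1 (3.26%), bleomycin 2 (3.96%) and bleomycin 4 (4.57%) lay below all naive libraries. Bleomycin 1 and bleomycin 2 also stand apart in several of the results below. Over all genes tested, bleomycin 4 was least like its group, with a median Spearman correlation of 0.937 to the other bleomycin libraries. That median was 0.945 to 0.953 for the others. Bleomycin 4 had counts for 13940 genes, beside 15863 to 17112 in the others. Of 21 macrophage and monocyte genes, 6 to 12 were at 0 counts in a library, among them C1qa in all 17, while Marco had 1 count at most and Adgre1 2 at most. Others of that list were counted, in poly(A) libraries Cd14 at 820 to 1099 counts, Mpeg1 at 272 to 416, Ly6c2 at 171 to 360, Cd68 at 43 to 75 and Csf1r at 20 to 45. The list summed to 136 to 156 CPM of the raw total in vehicle and 134 to 164 CPM in ISRIB libraries. Neutrophil genes summed to 0 to 10 counts per library over 8 genes. The 10 airway epithelial genes summed to more, 3868 to 4340 CPM of the raw total in vehicle and 2463 to 4262 CPM in ISRIB libraries. With the total-RNA kit they summed to 488 to 926 CPM in naive and 579 to 1045 CPM in bleomycin libraries. ISRIB 4 (2463 CPM) and ISRIB 2 (3440 CPM) lay below all vehicle libraries.

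Levels were compared between genes as CPM (counts scaled to the effective library size after the filter) per kilobase of exon, and only within a kit. In vehicle libraries the order was Lyz2 at 26631 ± 1157 CPM per kb (SD, n = 4), Cxcl15 at 4436 ± 90.5 and Slc34a2 at 3431 ± 87.5. Chil1 followed at 1755 ± 66.7 CPM per kb, Lamp3 at 1294 ± 46.1, Hc at 947 ± 50.5 and Napsa at 825 ± 21.8. S100g (493 ± 13.8), Abca3 (310.4 ± 5.59) and Egfl6 (286 ± 9.56 CPM per kb) were lowest, and no 2 neighbours in this order overlapped over the 4 libraries. In ISRIB libraries the order was the same, with Hc (871 ± 51.5) and Napsa (868 ± 31.2 CPM per kb) overlapping. In the naive total-RNA libraries Lyz2 was again highest at 9164 ± 696 CPM per kb (SD, n = 4), ahead of Cxcl15 (2161 ± 174) and Slc34a2 (1964 ± 42.2), which overlapped. Lamp3 (939.8 ± 41.8 CPM per kb) stood alone below them. Hc (749.6 ± 20.7), S100g (731 ± 74.8) and Chil1 (626 ± 32.4 CPM per kb) each overlapped with the next, as did Abca3 (243 ± 9.43), Napsa (223 ± 17.5) and Egfl6 (211 ± 7.74 CPM per kb). In bleomycin libraries Lyz2 stood at 6852 ± 2909 CPM per kb (SD, n = 5), Cxcl15 at 1971 ± 445 and Slc34a2 at 1752 ± 185, and Cxcl15 and Slc34a2 overlapped. Lamp3 (871 ± 172), Chil1 (773 ± 121), Hc (703 ± 216) and S100g (591 ± 165 CPM per kb) each overlapped with the next. So did Napsa (294 ± 51.1), Egfl6 (242 ± 36.9) and Abca3 (203 ± 15.9 CPM per kb). With the length of the longest transcript in place of the summed exons, Napsa passed Hc and Lamp3 in vehicle libraries (1406 CPM per kb), and in naive libraries Slc34a2 (2357) passed Cxcl15, Chil1 (954) passed Lamp3, Hc and S100g, and Napsa (379.7) passed Abca3 (352). In bleomycin libraries that length put Slc34a2 (2103) above Cxcl15, Chil1 (1178) above Lamp3, and Abca3 (293) above Egfl6. Depth, RNA input and selection all differed between the kits, so the 2 orders were not tested against each other.

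The first comparison asked whether 24 h of ISRIB changed these genes in uninjured mice. None of the 10 genes passed an adjusted p of 0.05 with the quasi-likelihood test of edgeR, against 2.2% of the 12054 genes tested (1.1% higher and 1.1% lower), and none passed with DESeq2 or limma-voom. None had an unadjusted p under 0.05, against 16% of all genes, and none had groups that did not overlap, against 8.65% (4.26% higher and 4.39% lower). The intervals were narrow. Across the 10 genes the 95% interval of the log2 fold change nowhere reached below -0.24 (Hc) or above 0.26 (Cxcl15), a range of 0.845-fold to 1.20-fold. The median of the 10 log2 fold changes was 0.0064, beside -0.0001 for all genes tested, and their median absolute change was 0.06, beside 0.10. The SD of log2 CPM was larger in ISRIB than in vehicle libraries for 8 of the 10, against 51.2% of all genes.

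**Figure D1:**
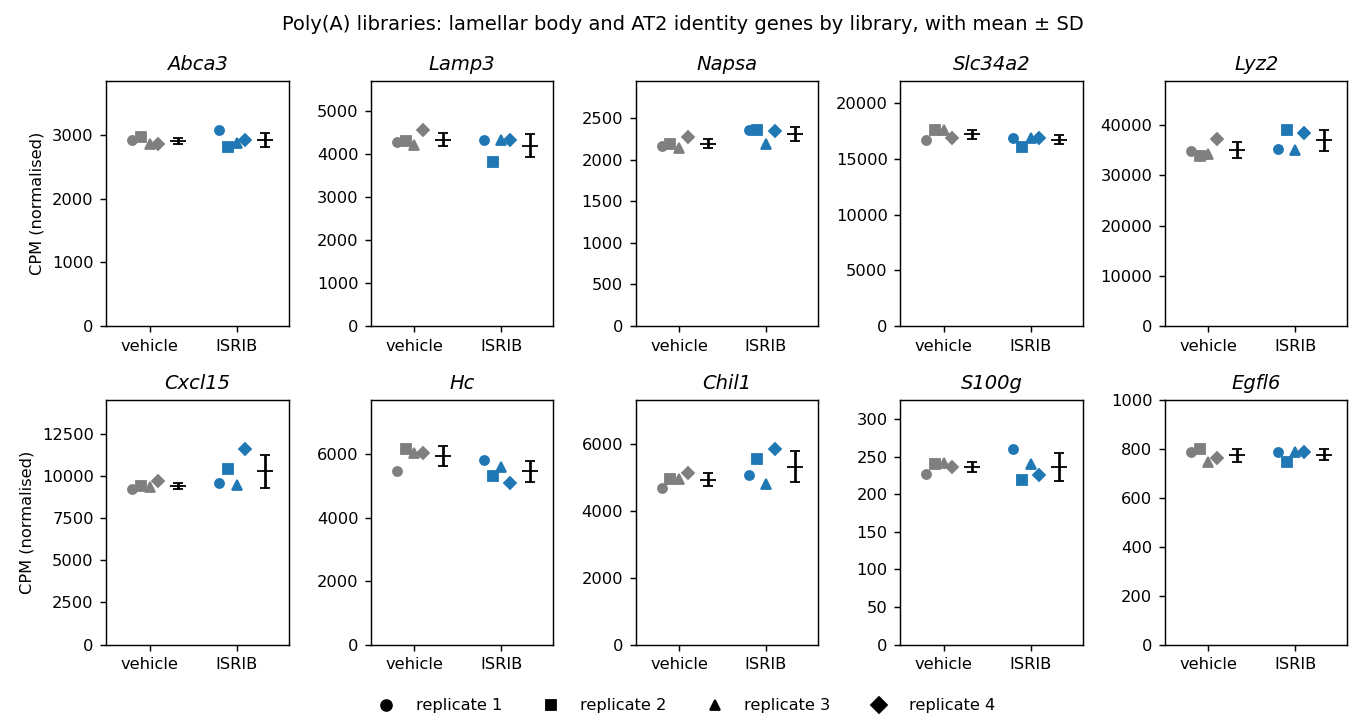
Normalised CPM (vertical axes, linear from 0) of the 10 genes in the 4 vehicle (grey) and 4 ISRIB (blue) poly(A) libraries, 1 symbol shape per replicate number, with bars for mean ± SD. The groups overlap in every panel, and ISRIB 2 and ISRIB 4 hold the 2 highest values of Lyz2, Cxcl15 and Chil1.

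Among the lamellar body and membrane genes, Abca3 stood at 2934, 2972, 2869.9 and 2863 CPM in vehicle 1 to 4 and at 3084, 2818, 2886 and 2922 CPM in ISRIB 1 to 4. The fitted log2 fold change of Abca3 was 0.0088 (SE 0.05, 95% interval -0.10 to 0.11, adjusted p 0.959). The vehicle values of Abca3 lay inside the wider ISRIB range, with ISRIB 1 highest and ISRIB 2 lowest of all 8. Lamp3 stood at 4294, 4306, 4207 and 4565 CPM in vehicle and at 4335, 3815, 4339.8 and 4324 CPM in ISRIB libraries, a log2 fold change of -0.05 (SE 0.06, 95% interval -0.16 to 0.07, adjusted p 0.752). ISRIB 2 was low for Lamp3 while the other ISRIB libraries lay inside the vehicle range, and without ISRIB 2 the log2 fold change was -0.0032. Napsa read 2166, 2194, 2141 and 2275 CPM in vehicle and 2355, 2356, 2185 and 2339 CPM in ISRIB libraries, a log2 fold change of 0.07 (SE 0.05, 95% interval -0.03 to 0.18, adjusted p 0.505). For Napsa 3 ISRIB libraries lay above all vehicle libraries and ISRIB 3 lay among them. Slc34a2, the phosphate cotransporter, went from 17198 ± 439 to 16697 ± 406 CPM (SD, n = 4 each), and its log2 fold change was -0.04 (interval -0.15 to 0.06, adjusted p 0.745).

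Of the genes for secreted products, Hc and Cxcl15 came nearest to the threshold, in opposite directions. Hc, the C5 gene, read 5465, 6173, 6042 and 6044 CPM in vehicle 1 to 4 and 5825, 5319, 5593 and 5084 CPM in ISRIB 1 to 4, a log2 fold change of -0.12 (SE 0.06, 95% interval -0.24 to 0.0013, adjusted p 0.319). All ISRIB libraries lay below vehicle 2 to 4, and vehicle 1 lay among the ISRIB libraries. Cxcl15 read 9242, 9444, 9363 and 9697 CPM in vehicle and 9599, 10430.1, 9479.6 and 11651 CPM in ISRIB libraries, a log2 fold change of 0.12 (SE 0.06, 95% interval -0.0077 to 0.26, adjusted p 0.347). ISRIB 2 and ISRIB 4 were above every vehicle library for Cxcl15, while ISRIB 1 and ISRIB 3 lay inside the vehicle range. Without ISRIB 4 the log2 fold change of Cxcl15 was 0.06. Chil1 read 4671, 4935, 4952 and 5123 CPM in vehicle and 5059, 5530.2, 4805 and 5851 CPM in ISRIB libraries, a log2 fold change of 0.11 (SE 0.06, 95% interval -0.02 to 0.24, adjusted p 0.404). The same 2 ISRIB libraries were highest, and without ISRIB 4 the value for Chil1 was 0.06. Lyz2 read 34860.1, 33781, 34309.8 and 37233 CPM in vehicle and 35298, 39028, 35050.1 and 38400.5 CPM in ISRIB libraries, a log2 fold change of 0.08 (SE 0.06, 95% interval -0.04 to 0.19, adjusted p 0.552), again with ISRIB 2 and ISRIB 4 highest (0.05 without ISRIB 2). S100g went from 237 ± 6.63 to 236 ± 18.8 CPM (log2 fold change -0.002, interval -0.12 to 0.12), and Egfl6 from 775 ± 25.9 to 777 ± 21.3 CPM (0.004, interval -0.10 to 0.11; SD, n = 4 each). The signs of Abca3, S100g and Egfl6 turned when single libraries were left out. ISRIB 2 and ISRIB 4 also stood apart over all genes tested, at 15.3 and 21.2 on the first principal component of log2 CPM (23.2% of the variance). ISRIB 1 and ISRIB 3 lay at 1.59 and 3.15, and vehicle libraries at -14.7 to -6.88. The cause was not tested.

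**Figure D2:**
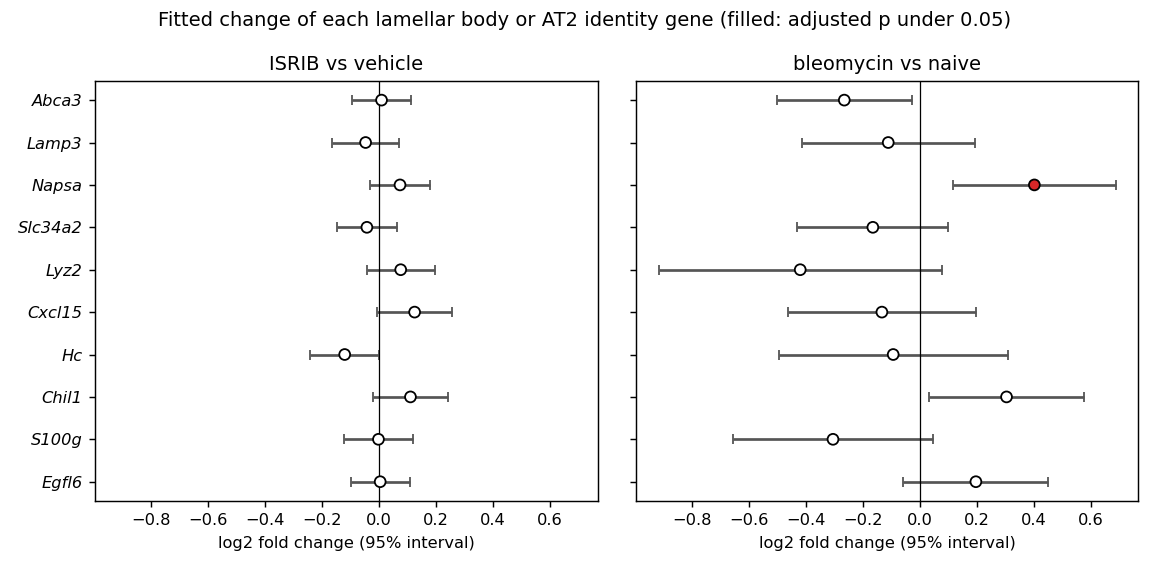
Fitted log2 fold change (horizontal axis, shared by both panels) of each gene with its 95% interval, for ISRIB against vehicle (left, n = 4 and 4) and bleomycin against naive (right, n = 4 and 5). Filled points have an adjusted p under 0.05, which holds for Napsa at 0.40 after bleomycin alone.

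The second comparison asked how the same genes stood 14 days after bleomycin injury. Napsa rose and the other 9 genes did not pass the threshold, so 1 of 10 was called, against 20.5% of the 11223 genes tested. By direction, 1 of 10 was called higher, against 11.2% of all genes, and 0 of 10 lower, against 9.31%. At an unadjusted p under 0.05 there were 3 of the 10 (Napsa, Chil1 and Abca3), against 33.3%. DESeq2 called Napsa and Chil1 higher and Abca3 lower, 3 of 10 against 22.5% of all genes with that tool. Limma-voom called Napsa higher and Abca3 lower, 2 of 10 against 19.6%. The fitted changes ran from -0.42 (Lyz2) to 0.40 (Napsa) on the log2 scale, with a median of -0.12 beside 0.0026 for all genes tested and a median absolute change of 0.23 beside 0.31. In bulk libraries, fewer AT2 cells among those sorted and less of a transcript in each cell cannot be told apart.

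**Figure D3:**
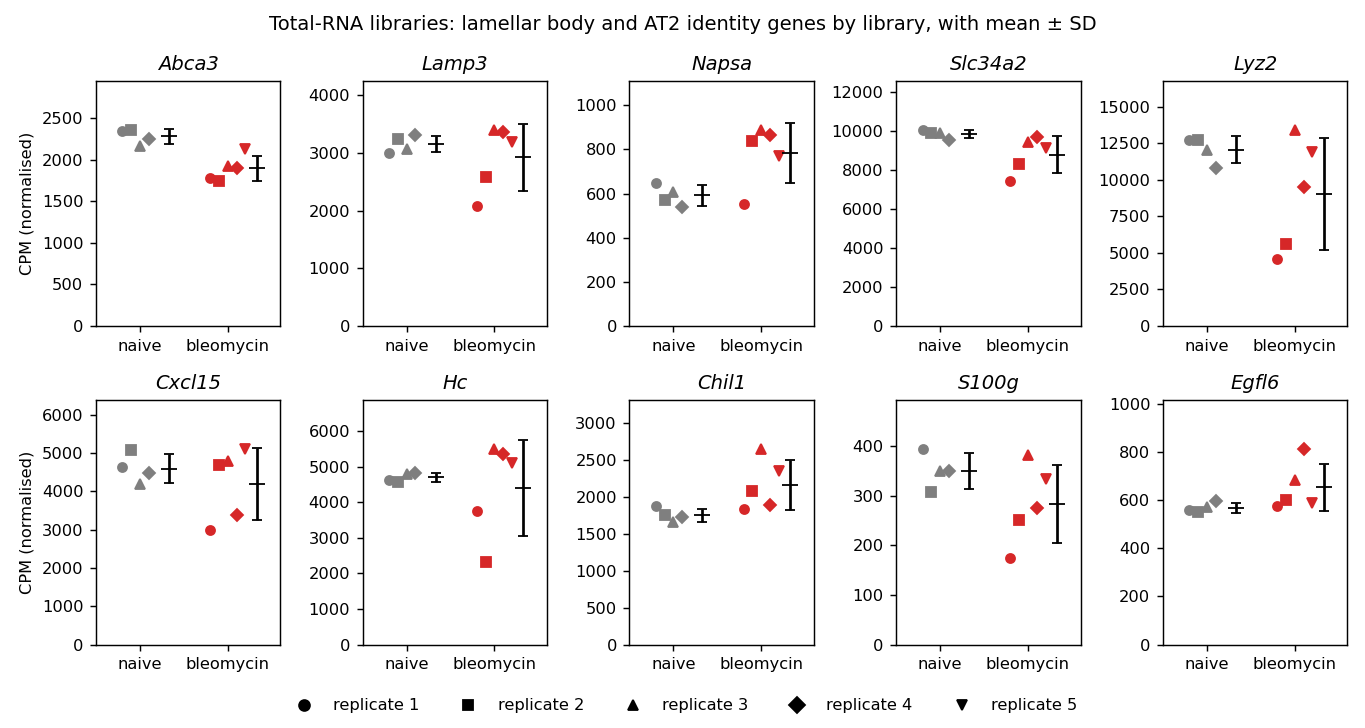
Normalised CPM (vertical axes, linear from 0) of the 10 genes in the 4 naive (grey) and 5 bleomycin (red) total-RNA libraries, 1 symbol shape per replicate number, with bars for mean ± SD. The groups are separate for Abca3 alone, and bleomycin 1 is the lowest bleomycin library in 8 of the 10 panels.

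The gene called was Napsa, the protease gene. It stood at 649.7, 572, 607 and 541 CPM in naive 1 to 4 and at 553, 838, 888, 867 and 768 CPM in bleomycin 1 to 5. Bleomycin 2 to 5 lay above all naive libraries and bleomycin 1 lay among them. The mean went from 592 ± 46.7 (SD, n = 4) to 783 ± 136 CPM (SD, n = 5), a log2 fold change of 0.40 (SE 0.14, 95% interval 0.12 to 0.69, adjusted p 0.0425). The call was lost when any single library other than bleomycin 1 was left out (adjusted p 0.0587 to 0.144), while the change stayed between 0.36 and 0.42 or, without naive 1, 0.45. Without bleomycin 1 it was 0.51 (adjusted p 0.00239).

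Abca3, the phospholipid transporter gene, stood at 2347, 2359.9, 2172 and 2249 CPM in naive 1 to 4 and at 1787, 1751, 1921, 1908 and 2132 CPM in bleomycin 1 to 5. Every bleomycin library lay below every naive library, and no other of the 10 had separate groups. Over all genes tested the groups were separate for 19.7%, 10.4% higher and 9.35% lower after bleomycin. The log2 fold change was -0.26 (SE 0.11, 95% interval -0.50 to -0.03, adjusted p 0.106), which did not pass with edgeR but did with DESeq2 (adjusted p 0.0112) and limma-voom (0.0439). Lamp3, which encodes the lamellar body membrane glycoprotein, stood at 3005, 3238, 3069 and 3304 CPM in naive and at 2071, 2582, 3396, 3366 and 3192 CPM in bleomycin libraries. Bleomycin 1 and bleomycin 2 were low for Lamp3, while bleomycin 5 lay inside the naive range, and bleomycin 3 and bleomycin 4 lay above it. Its log2 fold change was -0.11 (SE 0.14, 95% interval -0.41 to 0.19, adjusted p 0.644). It was -0.0053 without bleomycin 1, -0.07 without bleomycin 2 and -0.16 without bleomycin 3 or bleomycin 4. Without bleomycin 1 and bleomycin 2 together it was 0.08 (adjusted p 0.606). Leaving out both was chosen after the values had been seen, here and for the genes below. Where these libraries are low for a gene, leaving them out raises its fitted value, so those fits are a description. Slc34a2 read 10039, 9911, 9883 and 9544 CPM in naive and 7423, 8280.0, 9435, 9670.0 and 9112 CPM in bleomycin libraries, a log2 fold change of -0.16 (SE 0.13, 95% interval -0.43 to 0.10, adjusted p 0.393). The naive values of Slc34a2 lay close together, with 1 bleomycin library inside their range and 4 below it. With single libraries left out the log2 fold change of Slc34a2 ran from -0.20 (without bleomycin 4) to -0.11 (without bleomycin 1). Without bleomycin 1 and 2 together it was -0.06.

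Lyz2, the lysozyme gene, had the widest spread of the 10 after bleomycin. It stood at 12693, 12742, 12028 and 10775 CPM in naive 1 to 4 and at 4616, 5638, 13406, 9529 and 11896 CPM in bleomycin 1 to 5. Bleomycin 1 and bleomycin 2 held less than the others by a wide margin, and bleomycin 3 was above all naive libraries. The log2 fold change was -0.42 (SE 0.24, 95% interval -0.92 to 0.08, adjusted p 0.230). With single libraries left out it ran from -0.60 (without bleomycin 3, adjusted p 0.0780) to -0.25 (without bleomycin 1). Without bleomycin 1 and bleomycin 2 together it was -0.05 (adjusted p 0.805). Lyz2 is also expressed by macrophages. The 21 macrophage and monocyte genes summed to 43.3 to 59.2 CPM of the raw total in naive and 77.6 to 110 CPM in bleomycin libraries. Cd14, which encodes a co-receptor for lipopolysaccharide, was the 1 gene called higher of the 6 tested (14.3 ± 3.82 to 47.9 ± 9.78 CPM), beside 11.2% of all genes. Of the 6, 3 had a log2 fold change above 0 and 3 below. Cd14 held 41 to 55 of the list's 147 to 230 counts per naive library, and 150 to 407 of the 256 to 629 per bleomycin library. Marco, Adgre1, Itgax, Siglecf, Ear2, C1qa and C1qb had 0 counts in all 5 bleomycin libraries. Others of the list had raw counts in every bleomycin library. Mpeg1 had 40 to 154 (naive 31 to 63), Plet1 16 to 100 (16 to 55) and Ly6c2 7 to 48 (9 to 34). Cd68 had 9 to 40 (naive 10 to 16), Csf1r 1 to 20 (3 to 12), Ptprc 1 to 10 (0 to 3) and Mrc1 2 to 8 (2 to 6). The sum was highest in bleomycin 2 (110 CPM) and was 80.0 CPM in bleomycin 1. Its part in the values of Lyz2 was not tested.

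Hc read 4611, 4561, 4783 and 4829 CPM in naive and 3748, 2325, 5508, 5342 and 5092 CPM in bleomycin libraries, a log2 fold change of -0.09 (SE 0.19, 95% interval -0.49 to 0.31, adjusted p 0.779). Bleomycin 1 and bleomycin 2 were below all naive libraries and the other 3 above all of them, so the sign turned without bleomycin 2 (0.07, adjusted p 0.766) and without both (0.18, adjusted p 0.172). It was -0.04 without bleomycin 1 and -0.14 to -0.18 without bleomycin 3, 4 or 5. Cxcl15 read 4649.7, 5072, 4189 and 4479 CPM in naive and 2989, 4686, 4796, 3374 and 5120.4 CPM in bleomycin libraries, a log2 fold change of -0.13 (SE 0.16, 95% interval -0.46 to 0.20, adjusted p 0.602). For this chemokine gene bleomycin 1 and bleomycin 4 were low and the other 3 lay in or just above the naive range. The log2 fold change of Cxcl15 was -0.03 without bleomycin 1, -0.06 without bleomycin 4, -0.08 without naive 2 and -0.21 without bleomycin 5. Chil1, the chitinase-like gene, read 1876, 1751, 1657 and 1733 CPM in naive and 1839.7, 2083, 2659, 1898 and 2354 CPM in bleomycin libraries. Bleomycin 2 to 5 lay above all naive libraries and bleomycin 1 just below naive 1. Its log2 fold change was 0.30 (SE 0.13, 95% interval 0.03 to 0.58, adjusted p 0.105). It passed with DESeq2 (adjusted p 0.0385) and without bleomycin 1 (0.36, adjusted p 0.0366). Without bleomycin 3 the log2 fold change of Chil1 was 0.23 (adjusted p 0.222).

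S100g, the calcium-binding protein gene, read 396, 308, 349.8 and 350.2 CPM in naive and 176, 251, 382, 275 and 334 CPM in bleomycin libraries, a log2 fold change of -0.30 (SE 0.17, 95% interval -0.66 to 0.05, adjusted p 0.218). Bleomycin 1, 2 and 4 lay below all naive libraries. With single libraries left out the log2 fold change of S100g ran from -0.43 (without bleomycin 3, adjusted p 0.0710) to -0.17 (without bleomycin 1). It was -0.08 without bleomycin 1 and 2 together. Egfl6 read 559, 551, 571 and 599 CPM in naive and 578, 604, 683, 816 and 588 CPM in bleomycin libraries, a log2 fold change of 0.20 (SE 0.12, 95% interval -0.06 to 0.45, adjusted p 0.274). Bleomycin 4 was highest for Egfl6, and bleomycin 1 and bleomycin 5 lay within the naive range. Without bleomycin 4 the log2 fold change of Egfl6 was 0.11, and without bleomycin 1 it was 0.24.

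The spread between libraries was larger after bleomycin for all 10 genes. The SD of log2 CPM ran from 0.03 (Slc34a2) to 0.15 (S100g) in naive libraries and from 0.11 (Abca3) to 0.67 (Lyz2) in bleomycin libraries. Over all genes tested, the bleomycin SD was the larger for 76.1%. Bleomycin 1 had the lowest value of its group for 8 of the 10 genes and bleomycin 2 for the other 2 (Abca3 and Hc), while bleomycin 3 had the highest for 6. Markers of alveolar type 1 cells, the flat gas-exchange cells that AT2 cells can give rise to, summed to 3426 to 3661 CPM of the raw total in bleomycin libraries and to 2103 to 2357 in naive libraries. In bleomycin 1 the sum was 3644 and in bleomycin 2 it was 3427, both inside the range of the other 3. Genes of the transitional epithelial state summed to 1285 to 1712 CPM in bleomycin and 689 to 768 CPM in naive libraries, with bleomycin 2 highest. Fibroblast genes summed to 19.1 to 131 CPM in bleomycin and 3.88 to 12.1 CPM in naive libraries (9 genes, 3 of the 4 tested called higher), and endothelial genes to 24.4 to 87.7 and 22.4 to 30.2 CPM (8 genes, 2 of the 6 tested called higher), beside 11.2% of all genes called higher. The fibroblast sum was highest in bleomycin 2 (131 CPM) and bleomycin 1 (55.3 CPM), and 32.4 CPM at most in the other 3. Bleomycin 1 and bleomycin 2 both lay below all naive libraries for Abca3, Lamp3, Slc34a2, Lyz2, Hc and S100g. Bleomycin 2 lay above all naive libraries for Napsa, Chil1 and Egfl6. The part of fibroblast and endothelial transcripts in the values of the 10 genes was not tested.

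Ratios of raw counts within a library do not depend on scaling. The ratios given were chosen after the values had been seen and are given with no test. Napsa over Abca3 was 0.241 to 0.279 in naive libraries and 0.310 to 0.479 in bleomycin libraries, so the groups did not overlap. Lamp3 over Abca3 did overlap, at 1.28 to 1.47 in naive and 1.16 to 1.77 in bleomycin libraries. In the Napsa ratio bleomycin 1 was nearest to the naive libraries and bleomycin 2 farthest from them. Chil1 over Lyz2 was 0.137 to 0.161 in naive libraries and 0.399, 0.369, 0.198, 0.199 and 0.198 in bleomycin 1 to 5. Bleomycin 3 to 5 were nearly equal to each other in this ratio, and bleomycin 1 and bleomycin 2 stood well above them. In the poly(A) libraries Napsa over Abca3 was 0.738 to 0.794 for vehicle and 0.757 to 0.836 for ISRIB, and Chil1 over Lyz2 was 0.134 to 0.146 and 0.137 to 0.152.

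**Figure D4:**
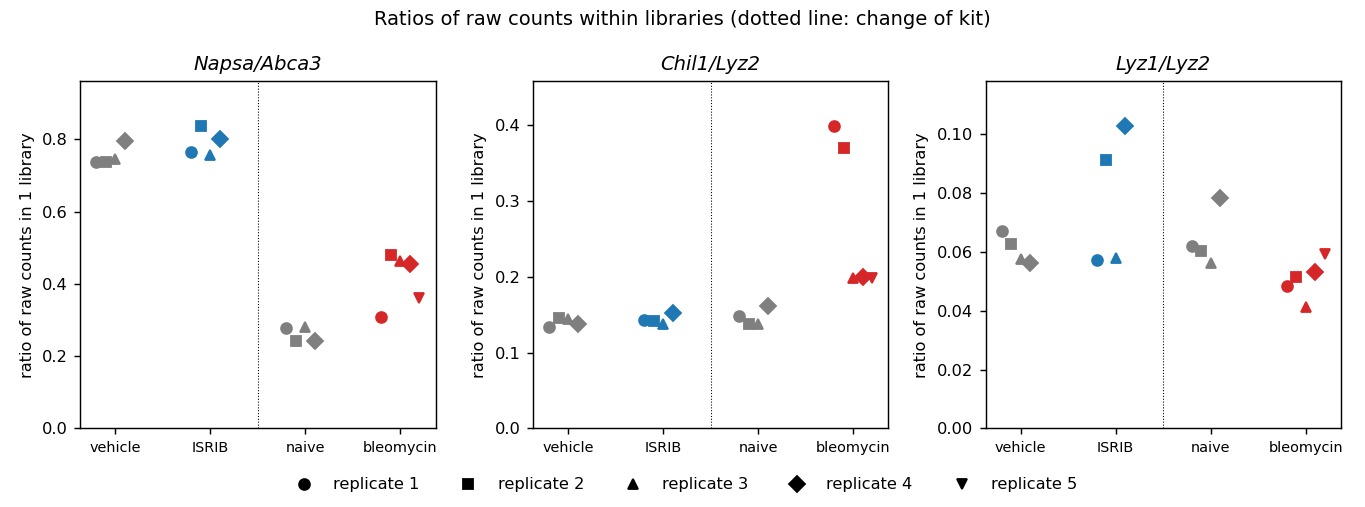
Ratios of raw counts (vertical axes, linear from 0) of Napsa to Abca3, Chil1 to Lyz2 and Lyz1 to Lyz2 in each library, 1 symbol shape per replicate number, with the poly(A) groups left and the total-RNA groups right of the dotted line. Napsa over Abca3 is 0.310 to 0.479 in bleomycin and 0.241 to 0.279 in naive libraries, and Chil1 over Lyz2 is highest in bleomycin 1 and bleomycin 2.

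Lyz1 is a neighbouring copy of Lyz2 (ENSMUSG00000069515, chromosome 10, 117287797 to 117292868, minus strand) whose longest transcript is identical to that of Lyz2 at 95.96% of 1262 aligned bases, so counts of the pair may be shared and both are less certain. Lyz1 fell from 769 ± 69.2 (SD, n = 4) to 456 ± 198 CPM (SD, n = 5) after bleomycin, a log2 fold change of -0.75 (SE 0.23, 95% interval -1.24 to -0.26, adjusted p 0.0277). It read 223, 289, 553, 507 and 706 CPM in bleomycin 1 to 5, against 788, 767, 678 and 844 CPM in naive 1 to 4, and was lowest in the 2 libraries that were lowest for Lyz2. After ISRIB Lyz1 read 2017, 3564, 2029.8 and 3946 CPM in ISRIB 1 to 4, against 2335, 2119, 1972 and 2088 CPM in vehicle 1 to 4, a log2 fold change of 0.44 (adjusted p 0.186). ISRIB 2 and ISRIB 4 were again the high libraries. Lyz1 over Lyz2 was 0.0913 and 0.103 in those 2, beside 0.0571 and 0.0579 in ISRIB 1 and ISRIB 3 and 0.0561 to 0.0670 in vehicle libraries.

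A list of 32 further genes of surfactant and lamellar body biology was read in the same fits. After ISRIB 1 of the 32 was called, beside 2.2% of all genes (1.1% called lower). It was Syt7 (a calcium sensor of lysosome exocytosis), which fell from 79.9 ± 6.97 to 62.8 ± 6.97 CPM (log2 fold change -0.35, adjusted p 0.0255, n = 4 each). The call was lost without vehicle 1, vehicle 3, ISRIB 1, ISRIB 2 or ISRIB 3. The surfactant protein C gene Sftpc had a log2 fold change of -0.05 (adjusted p 0.762). After bleomycin 7 of the 32 were called, 4 higher and 3 lower, beside 20.5% of all genes, and the median of the list was -0.0002. Higher were Sftpd, a collectin (0.58, adjusted p 0.0133), Snap23, a membrane fusion protein (0.52, 0.0151), Ctsh, a protease that acts on surfactant protein precursors (0.51, 0.0221), and Lamp1, a lysosomal membrane protein (0.42, 0.0291). Lower were Vps33b and Vps16, both of the endosomal tethering machinery (-0.71, adjusted p 0.00285, and -0.67, 0.00877), and Adgrf5, a receptor that controls surfactant pool size (-0.35, 0.0475). Sftpc stood at -0.44 (interval -0.81 to -0.07, adjusted p 0.0870) and passed with DESeq2 and limma-voom. Between 3 and 8 of the 32 were called when single libraries were left out, beside 13.3% to 23.4% of all genes, with the fewest without naive 4. Vps33b and Vps16 were called in all 9 of these fits. Of the 9, Adgrf5 was called in the fit without bleomycin 5 alone, and the calls of Ctsh and Lamp1 were lost without naive 1, naive 3, naive 4 or bleomycin 3, that of Lamp1 also without bleomycin 5. Sftpd was lost without naive 2, and Snap23 without naive 2 or naive 4.

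**Figure D5:**
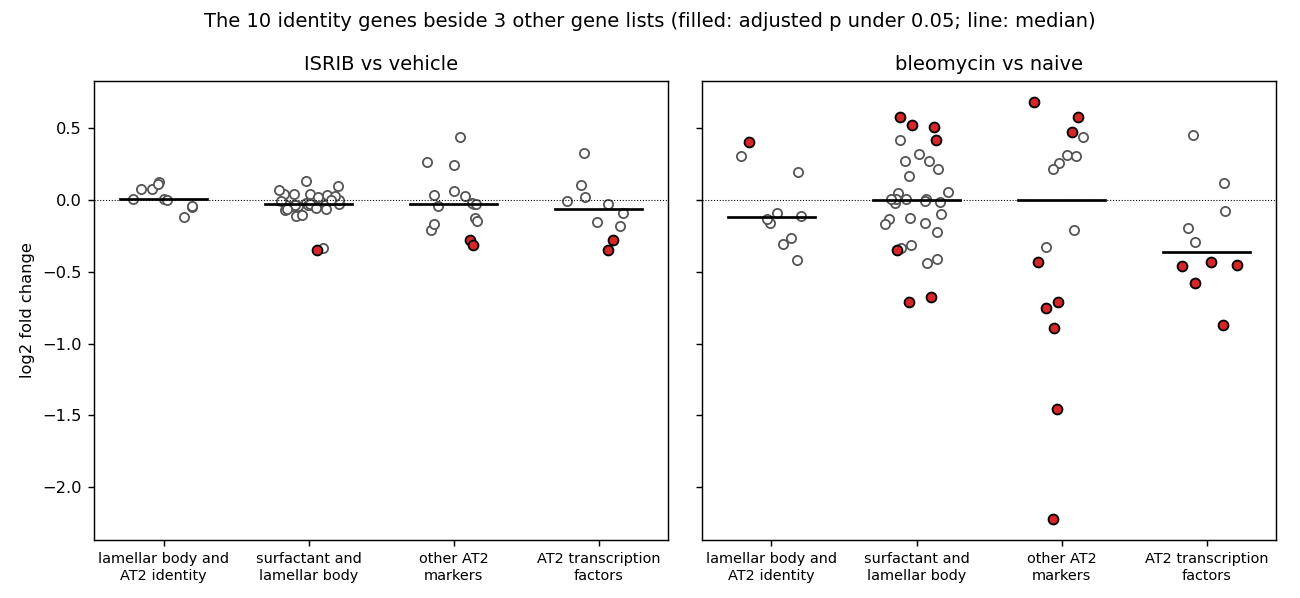
Fitted log2 fold change (vertical axis) of each tested gene in 4 lists, for ISRIB against vehicle (left) and bleomycin against naive (right), with filled points at an adjusted p under 0.05 and a line at the list's median. The 10 identity genes lie between -0.42 and 0.40 after bleomycin, and 5 of the 10 transcription factor genes are called lower.

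Of 16 other AT2 marker genes, 9 were called after bleomycin, 3 higher and 6 lower, beside 11.2% and 9.31% of all genes, with a median log2 fold change of 0.0026. Muc1, a membrane mucin gene, rose by 0.68 (adjusted p 4.11e-04), the alarmin gene Il33 by 0.58 (0.00552) and Cd74, of antigen presentation, by 0.47 (0.0108) on the log2 scale. Bex2 went from 233 ± 40.4 to 50.2 ± 24.8 CPM (log2 fold change -2.22, adjusted p 1.09e-05), Acoxl changed by -1.46 (3.06e-05) and Fabp5, a fatty acid carrier gene, by -0.89 (0.00517). After ISRIB 2 of the 16 were called, Etv5 (-0.28, adjusted p 0.00817) and the desaturase gene Scd1 (-0.32, 0.0176), both lower, beside 1.1% of all genes.

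Of 11 transcription factor genes of AT2 cells, 10 were tested. After bleomycin 5 were called lower and none higher, against 9.31% of all genes called lower, and the list's median log2 fold change was -0.36. Nkx2-1 fell from 371 ± 14.3 (SD, n = 4) to 269.9 ± 30.5 CPM (SD, n = 5), a log2 fold change of -0.46 (SE 0.11, 95% interval -0.69 to -0.22, adjusted p 0.00685), with every bleomycin library below every naive library. Tfcp2l1 (-0.87, adjusted p 6.28e-05), the pioneer factor gene Foxa1 (-0.58, 0.00729), Gata6 (-0.45, 0.0342) and Etv5, a target of FGF signalling (-0.43, 0.0199), were the other 4, while Cebpa stood at -0.19 (0.241) and did not pass. After ISRIB Etv5 and Tfcp2l1 (-0.35, adjusted p 0.0176) were called lower, 2 of 10 beside 1.1% of all genes, and Nkx2-1 stood at -0.09 (interval -0.22 to 0.03, adjusted p 0.462). Etv5 is in this list and among the other AT2 markers above, so both lists count it in both comparisons. After bleomycin the 5 genes with the NKX2-1 pattern in their windows ranged from -0.42 (Lyz2) to 0.20 (Egfl6), and the 4 whose windows lacked it from -0.30 (S100g) to 0.30 (Chil1). Whether the fall of Nkx2-1 had a part in the value of any of these genes was not tested.

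Likeness of pattern over the 9 total-RNA libraries was measured as the root-mean-square difference of log2 CPM after each gene was centred on its own mean, among 9258 other genes with a mean of at least 5 CPM. Among the 10 genes themselves, the nearest pair was Abca3 and Slc34a2 (0.10 log2 units), and Napsa and Chil1 were nearest to each other (0.18). The nearest 3 outside the 10 were Ubr3, Arid2 and Pum2 for Abca3 (0.05 to 0.07), Plekhf2, Yipf4 and Ctdsp1 for Lamp3 (0.08 each), Bpnt1, Cd81 and Anxa2 for Napsa (0.07 to 0.09) and Rpl4, Cnbp and Stx17 for Slc34a2 (0.05 to 0.06). For S100g the nearest was Sftpc (0.10). For Cxcl15 the nearest were Serinc3, Rps15 and Ipmk (0.07 to 0.09), for Hc Kcnj2, Elmo2 and Slc1a3 (0.08 to 0.13), for Chil1 Glyr1, Arl6ip1 and Alyref (0.09 each) and for Egfl6 Dnajc8, Atp1b1 and Pdia6 (0.07 each). Lyz2 had no gene nearer than Kcne2 (0.19), Rxrb (0.21) and Sgf29 (0.22). Genes that vary little lie near many others, so a small difference is a description and the 9 libraries share 1 kit.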

How the data were processed

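For each kit the authors deposited 1 table of unnormalised counts over 43430 Ensembl gene IDs. That these are counts follows from the values, which are whole and sum differently by library. Per the submitters' processing notes, bcl2fastq 2.19.1, Trimmomatic 0.36, STAR 2.6.0, HTSeq 0.11.2 and the build mm10 were used by the authors. The sources used here do not give the annotation or strand setting. Symbols were matched by ID (42462 IDs).

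Each comparison stayed within its kit. Counts were filtered with filterByExpr (minimum count 10, total 15), scaled by TMM and tested by the two-sided quasi-likelihood test of edgeR 4.0.16 in R 4.3.3, on a design of group alone. Over all genes tested, Benjamini-Hochberg adjustment was applied, with calls made below 0.05. The SE is the unshrunken log2 fold change over the root of its F statistic, and 95% intervals follow from it. The procedure was tested on simulated data.

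Alternatives were DESeq2 1.42.0, limma-voom (limma 3.58.1), other scalings, no filter, left-out gene classes, a block and left-out libraries. The genes and lists were chosen with earlier results of these data known. All 10 genes are named; list genes are named if called, with a mean of at least 5 CPM, at most 6 per list by lowest p, besides Lyz1, Sftpc, Nkx2-1, Cebpa and Etv5. Adgrf5 falls outside that rule and was named after its values were seen. The macrophage and monocyte genes named by their counts, other than Cd14, fall outside it as well.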

Additional observations from a re-analysis of the deposited data

Results flagged for a closer look

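In 40 groups of values (10 genes in 4 groups of libraries), 4 had 1 library far from the others by Dixon's ratio. Chance gives about 1 in 20 in independent groups, but the 10 genes share the same libraries, so the 4 cannot be weighed against it. All 4 were in the ISRIB group. ISRIB 2 was low for Lamp3 (3815 CPM, the others 4324 to 4340), for Slc34a2 (16089 CPM, the others 16893 to 16904) and for Egfl6 (745 CPM, the others 786 to 788). ISRIB 3 was low for Napsa (2185 CPM, the others 2339 to 2356). In each case the other 3 libraries lay within 1 narrow range, so the gap was large beside a small spread.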

How the results depend on the processing

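Each of the 10 genes had at least 664 counts in every library, so 4 or 5 libraries per group limit the precision more than depth. After ISRIB 0 of the 10 were called under all 16 alternatives. After bleomycin the count of the 10 called went from 1 (20.5% of all genes) to 3 with DESeq2 (22.5%), to 2 with limma-voom (19.6%) and to 2 without bleomycin 1 and bleomycin 2 together (20.9%), an alternative chosen after seeing the data. It ran from 0 to 2 when single libraries were left out, being 2 without bleomycin 1 (23.4% of all genes) and 0 in the other 8 cases (13.3% to 21.6%). With the replicate block the count was 1 (19.5% of all genes), but the gene was Lyz2 (log2 fold change -0.66, adjusted p 0.0439) and not Napsa (0.0877). After ISRIB 0 of 10 were called with the block (2.3% of all genes). Replicate 5 exists in the bleomycin group alone, so bleomycin 5 did not inform the group effect in that fit. Same-numbered libraries did not deviate together (r from -0.11 to 0.08 for ISRIB and -0.04 to 0.05 for bleomycin). Of the 32 pathway genes, 0 to 1 were called after ISRIB (0.706% to 2.21% of all genes) and 3 to 8 after bleomycin (13.3% to 23.4%) when single libraries were left out. Over all genes, the 265 called after ISRIB became 648 without a filter on low counts, 86 without vehicle 1, 102 without vehicle 2 and 159 without ISRIB 4. Without that filter the median log2 fold change of all genes moved to -0.27 after bleomycin. Signs turned after ISRIB for Egfl6 with upper-quartile factors (-0.0048) and, with single libraries left out, for Abca3 (range -0.0149 to 0.0268), S100g (-0.0519 to 0.0341) and Egfl6 (-0.0141 to 0.0238). After bleomycin they turned for Hc (left-out range -0.18 to 0.0721; 0.18 without bleomycin 1 and 2) and Lamp3 (0.0769 without both). The causes were not tested.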
